A study of Rattus norvegicus with 8 samples.

Results

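The 9 genes described here encode plasma proteins made by hepatocytes and were measured in rat liver: the carriers Alb, Afp, Ttr, Rbp4, Tf, Gc and Ahsg, and the protease inhibitors Ambp and Serpina1 that circulate with them. They were chosen by symbol, through the accession that the array's annotation gives each non-control probe, and every probe of a gene was kept. This gave 9 of 13458 named genes and 12 of 41012 distinct probes, with 3 probes for Alb, 2 for Ahsg and 1 for each other gene. The livers came from male Zucker diabetic fatty rats labelled as 12 weeks old, and RNA was read on 8 two-colour oligonucleotide arrays. Obese rats carry fa/fa, a leptin receptor defect present in the whole body, and lean rats carry fa/+, so lean animals also hold 1 copy of the allele. On each of 4 obese and 4 lean arrays, Cy5 carried liver RNA from animals that received testosterone undecanoate (TU), a slowly released testosterone ester, and Cy3 carried RNA from vehicle-treated rats of the same genotype. Treatment lasted 4 weeks at 20 mg/kg per subcutaneous dose, with doses 3 days apart in the first 2 weeks and once a week after that. Arrays are labelled as biological replicates, and since no source used here ties an RNA to 1 animal, p-values measure the spread between these arrays.

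Hepatocytes make most proteins of the blood plasma. Albumin (Alb) carries fatty acids, bilirubin and steroids and holds water in the vessels, and alpha-fetoprotein (Afp) is its counterpart of fetal life, which in rodents binds oestrogens and is shut down in the liver after birth. Gc, the vitamin D-binding protein, belongs to the same gene family. Retinol leaves the liver on Rbp4, which travels bound to transthyretin (Ttr), itself a carrier of thyroxine. Ambp encodes a precursor that is cleaved into alpha-1-microglobulin, a binder of heme and retinol-like ligands, and bikunin, a light chain of inter-alpha-inhibitors. Transferrin (Tf) carries iron, Ahsg (fetuin-A) keeps calcium and phosphate in solution, and Serpina1 inhibits neutrophil elastase.

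Genes of this kind are driven in hepatocytes by liver-enriched factors such as HNF4, FOXA and C/EBP, so the stretches of 250 bases before the start of 5 of them are shown. Afp, Alb and Gc were taken because they share a match to the letters GTTAATNAT, searched as 1 arm of the HNF1 site. Ambp and Rbp4 were taken because these genes passed the test for TU. The sequences are from RefSeq on GRCr8, at chr14:17875646-17875895 for Afp, chr14:17906980-17907229 for Alb, chr5:81593858-81594107 for Ambp and chr1:245313552-245313801 for Rbp4, all on the minus strand, and at chr14:18916005-18916254 on the plus strand for Gc. They are written 5′ to 3′, and capitals mark matches to GTTAATNAT or to TATAAA.
Afp: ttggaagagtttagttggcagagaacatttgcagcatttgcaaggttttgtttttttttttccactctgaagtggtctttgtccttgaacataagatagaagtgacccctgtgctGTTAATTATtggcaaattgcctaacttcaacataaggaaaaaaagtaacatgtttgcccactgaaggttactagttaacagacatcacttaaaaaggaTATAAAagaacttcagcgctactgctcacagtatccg
Alb: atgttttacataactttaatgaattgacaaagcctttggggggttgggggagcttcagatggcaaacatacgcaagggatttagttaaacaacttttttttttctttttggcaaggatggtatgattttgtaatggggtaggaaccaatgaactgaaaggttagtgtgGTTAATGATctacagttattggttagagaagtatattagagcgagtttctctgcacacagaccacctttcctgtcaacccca
Gc: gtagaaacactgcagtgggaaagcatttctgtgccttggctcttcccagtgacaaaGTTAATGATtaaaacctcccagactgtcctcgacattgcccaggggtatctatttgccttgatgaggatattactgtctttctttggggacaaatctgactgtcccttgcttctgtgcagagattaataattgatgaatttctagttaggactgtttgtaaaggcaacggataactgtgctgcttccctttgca
Ambp: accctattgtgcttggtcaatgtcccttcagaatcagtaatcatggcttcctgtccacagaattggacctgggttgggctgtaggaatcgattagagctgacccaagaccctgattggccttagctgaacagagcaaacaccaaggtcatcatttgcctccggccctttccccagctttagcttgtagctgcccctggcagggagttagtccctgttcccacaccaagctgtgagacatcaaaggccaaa
Rbp4: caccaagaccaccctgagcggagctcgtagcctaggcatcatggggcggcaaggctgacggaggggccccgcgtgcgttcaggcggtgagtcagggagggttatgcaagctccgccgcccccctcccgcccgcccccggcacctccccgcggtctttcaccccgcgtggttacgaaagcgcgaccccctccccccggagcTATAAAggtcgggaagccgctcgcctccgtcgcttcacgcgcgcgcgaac
All 9 genes matched the RefSeq table by symbol. Motifs were searched on both strands from 250 bases before to 50 bases after the start. GTTAATNAT lay in 3 of 9 windows (Afp, Alb and Gc) and in 0.747% of all 33469 windows, and its letters were chosen after the windows had been seen. TATAAA lay in 3 of 9 (Afp, Rbp4 and Tf), against 14.2% of all windows. TGTTCT, 1 arm of the androgen receptor's site, lay in 3 of 9 (Afp, Ahsg and Ambp), against 20.7%, and the full palindromic site in 0 of 9, against 0.0149%. The letters searched for HNF4 (CAAAGTCCA), FOXA (TGTTTAC), C/EBP (TTGCGCAA) and STAT5 (TTCNNNGAA) each lay in 0 of 9 windows and in 0.391%, 3.78%, 0.17% and 8.87% of all windows. CCAAT lay in 5 of 9, against 37.5%, and in Afp it overlapped the GTTAATNAT match. Afp and Alb are protein-coding neighbours on chromosome 14, where Gc lies too.

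The carrier probes were among the brightest on the arrays, and none was saturated. All 12 hepatocyte markers outside the carriers were measured, with a log2 summed level of 18.33 to 18.89 in TU-treated and 18.52 to 18.63 in vehicle-treated obese rats, and 18.74 to 18.97 in TU-treated and 18.36 to 18.51 in vehicle-treated lean rats. All 192 channel readings of the 12 probes lay well above background, 0 carried the saturation flag, and the brightest reached 50.3% of the saturation value (Ambp). At most 0.349% of tested probes were brighter than a given carrier probe, except for Afp, where 6.15% were. Of the 176 readings outside Afp, 172 came from the second, less sensitive scan pass, which the scanner software scales up, against 0 of 16 for Afp. The non-uniformity mark of the scanner software removed 4 of 96 spots: Tf on obese replicates 2, 3 and 4, and Gc on obese replicate 4. The Ttr spot of obese replicate 1 was not marked, but had median signals of 2026 in Cy5 and 2378 in Cy3, where the lowest on the other obese arrays were 208989 in Cy5 and 110760 in Cy3. Log ratios spread most on obese replicate 2, with an SD of 0.464 over all probes against 0.106 to 0.253 on the other arrays. All obese arrays were on slide 2 and all lean arrays on slide 1, and the 2 factors cannot be told apart. TU was in Cy5 on every array, so a change with TU and a dye bias of the probe cannot be told apart within a genotype either.

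The first comparison asked which carriers TU changed within each genotype. Ambp and Rbp4 transcripts rose with TU in lean rats and lay above vehicle on all 8 arrays, while Afp ratios lay above 0 in obese and below 0 in lean rats without passing the test. A probe was called at a limma p adjusted (Benjamini-Hochberg) over all tested probes under 0.05. In lean rats 2 of 12 carrier probes were called, both higher, against 0.197% of 26896 probes called and 0.123% called higher, and 0 lower, against 0.0744%. In obese rats 0 of 12 were called, against 0.0111% of 26962 probes, and 4 of 12 had an unadjusted p under 0.05, against 12.7% of all. In lean rats 6 of 12 had one, against 15.0%. Changes are log2 ratios of TU over vehicle after loess within arrays, given with the SE of the fit over 4 obese and 4 lean arrays.

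Rbp4, the retinol carrier, had log2 ratios of 0.16, 0.49, 0.51 and 0.54 on obese replicates 1 to 4, against 0.34, 0.72, 0.84 and 0.74 on lean replicates 1 to 4. All 8 ratios lay above 0 and the genotypes overlapped. In lean rats Rbp4 rose 1.58-fold with TU (0.66 ± 0.091, adjusted p = 0.0406). In obese rats it stood at 0.43 ± 0.091 (adjusted p = 0.236), and the obese minus lean difference was -0.23 ± 0.13 (95% interval -0.53 to 0.062, adjusted p = 0.692). Its partner Ttr, which holds Rbp4 in the circulation, had -0.34, -0.11, 0.54 and 0.36 on obese arrays, against 0.41, 0.28, 1.01 and 0.63 on lean arrays. Lean ratios of Ttr all lay above 0 and obese ones on either side of it, replicate 1 being the array with the dim spot. Ttr stood at 0.11 ± 0.16 in obese rats (adjusted p = 0.742) and 0.58 ± 0.16 in lean rats (adjusted p = 0.153), neither of them called. Ratios above 0 on all 4 lean arrays were held by 11.8% of all probes.

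Ambp had log2 ratios of 0.71, 0.44, 0.70 and 0.77 on obese arrays, against 0.46, 0.72, 1.13 and 0.74 on lean arrays. With Rbp4 and Afp it was 1 of 3 carrier probes of 10 above 0 on all 4 obese arrays, against 12.6% of all. It too lay above 0 on all 8 arrays, which held for 2 of the 10 carrier probes measured on all 8 and for 3.37% of all such probes. In lean rats Ambp rose 1.69-fold (0.76 ± 0.10, adjusted p = 0.0346). In obese rats the change was 0.66 ± 0.10 (adjusted p = 0.182), and the difference between the genotypes was -0.10 ± 0.14, with a 95% interval of -0.42 to 0.21 (adjusted p = 0.828). The calls of Ambp and Rbp4 in lean rats did not outlast the loss of most single arrays. Without lean replicates 1 to 4 the adjusted p was 0.0676, 0.202, 0.0817 and 0.0875 for Ambp and 0.0637, 0.243, 0.131 and 0.107 for Rbp4. Without obese replicates 1, 3 and 4 it was 0.0600, 0.0720 and 0.0786 for Ambp and 0.0531, 0.0770 and 0.0878 for Rbp4.

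Afp, the fetal member of the albumin family, was the one carrier with ratios below 0 on all 4 lean arrays, a pattern held by 18.5% of all probes. It had 0.32, 0.52, 0.14 and 0.31 on obese replicates 1 to 4, against -0.77, -0.58, -0.46 and -0.26 on lean replicates 1 to 4. The genotypes did not overlap: 0.870% of probes measured on all arrays lay above 0 on every obese array and below 0 on every lean one, and for 3.14% all obese ratios exceeded all lean ratios. The opposite order, all obese ratios below all lean ones, was held by 0 of the 10 carrier probes and 1.95% of all. Afp stood at 0.32 ± 0.086 in obese rats (adjusted p = 0.323) and at -0.52 ± 0.086 in lean rats (adjusted p = 0.0700). The obese minus lean difference was 0.84 ± 0.12, or 1.79-fold, with a 95% interval of 0.57 to 1.12. Its unadjusted p of 7.84e-05 ranked 7 among 26894 probes, and adjusted p was 0.301. In that test 0 of 12 carrier probes and 0.00372% of all probes were called, and 1 of 12 (Afp) had an unadjusted p under 0.05, against 7.62% of all. The signs in obese and in lean rats were kept in every setting run. Without obese replicate 2, the array with the widest spread, the lean change of -0.52 had an adjusted p of 0.0156, with 1199 probes called in all. Afp was also called lower in lean rats without background correction (-0.51, adjusted p = 0.0438) and in a fit of the lean arrays alone (-0.52, adjusted p = 0.0445).

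Afp levels, as log2 intensities normalized within and between arrays, are given per channel. In TU-treated rats they were 12.17, 12.02, 12.36 and 12.82 in obese rats, against 11.91, 11.56, 11.73 and 11.94 in lean rats. In vehicle-treated rats they were 11.85, 11.50, 12.22 and 12.50 in obese rats, against 12.67, 12.14, 12.19 and 12.21 in lean rats. By mean level the order was TU-treated obese (12.34 ± 0.34), vehicle-treated lean (12.30 ± 0.25), vehicle-treated obese (12.02 ± 0.44) and TU-treated lean rats (11.79 ± 0.18, SD, n = 4 each). Within the TU channel every obese array lay above every lean one, and within the vehicle channel the genotypes overlapped. Neither channel's difference was called (adjusted p = 0.0562 under TU and 0.430 under vehicle).

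Albumin itself, measured by 3 probes, showed no called change with TU. Its probes 1 to 3 stood at 0.25 ± 0.11, -0.15 ± 0.17 and -0.031 ± 0.13 in obese rats and at 0.10 ± 0.11, 0.24 ± 0.17 and 0.13 ± 0.13 in lean rats. On obese replicate 2 they read 0.42, -0.67 and -0.45, so probes of the same transcript disagreed in sign on that array. Adjusted p lay between 0.394 and 0.926. Gc, the vitamin D and actin binder of the same family, had 0.20, 0.74 and 0.62 on the 3 obese arrays left, against 0.013, 0.16, 0.88 and 0.51 on lean arrays. All 7 ratios of Gc lay above 0, with changes of 0.52 ± 0.17 in obese rats (adjusted p = 0.365) and 0.39 ± 0.15 in lean rats (adjusted p = 0.276).

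The iron carrier Tf had 0.10 on obese replicate 1, the only obese array that entered its fit, against 0.32, 0.053, 0.49 and 0.46 on lean arrays. It lay above 0 on all 5, at 0.10 ± 0.17 in obese rats (adjusted p = 0.802) and 0.33 ± 0.086 in lean rats (adjusted p = 0.181). The other 3 obese spots of Tf, marked as non-uniform, had Cy5 signals of 95117, 7649 and 54932 on replicates 2 to 4. Serpina1, the elastase inhibitor, had 0.049, -0.93, 0.27 and 0.16 on obese arrays, against 0.088, 0.25, 0.54 and 0.29 on lean arrays. Its lean ratios all lay above 0, and obese replicate 2 stood far below the other obese arrays. Ahsg probes 1 and 2, for fetuin-A, stood at -0.18 ± 0.18 and -0.24 ± 0.22 in obese rats and 0.10 ± 0.18 and -0.025 ± 0.22 in lean rats, with ratios on either side of 0 in each genotype. Neither gene passed (adjusted p of 0.487 to 0.976).

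**Figure D1:**
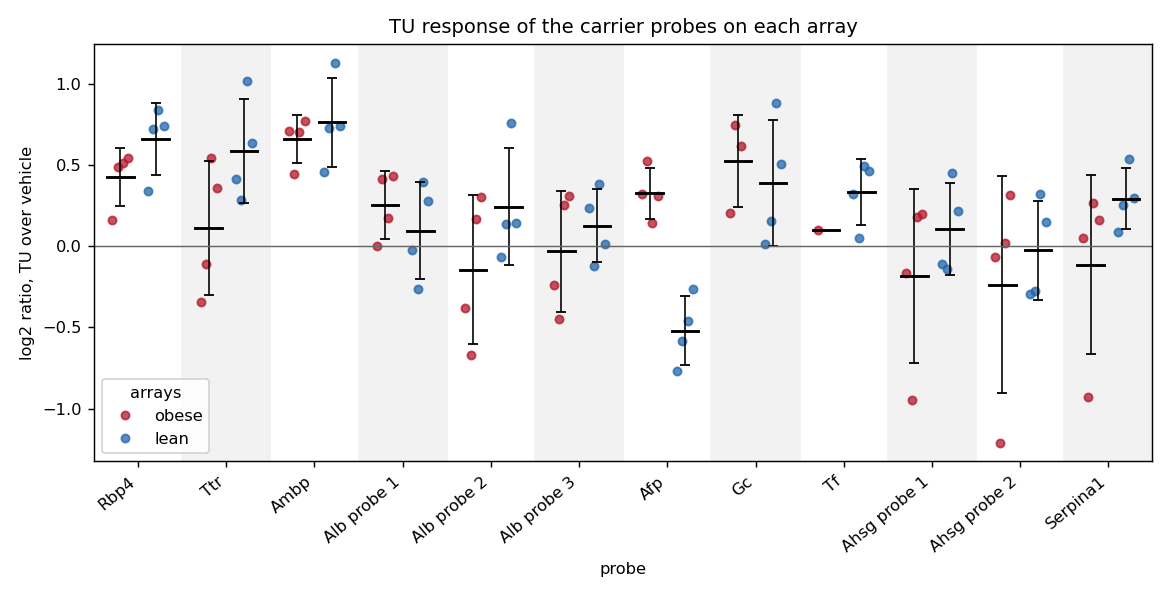
Log2 ratio of TU over vehicle (y axis) for each of the 12 carrier probes (x axis) on each obese array (red, left) and lean array (blue, right), with the mean (bar) and SD (whiskers). Ambp and Rbp4 lie above 0 on all 8 arrays, and Afp lies above 0 on the 4 obese and below 0 on the 4 lean arrays.

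The carriers' ratios changed with the way the arrays were normalized. On single arrays loess and plain median centring gave log ratios of a carrier probe that differed by -1.16 to 1.53. With median centring the median of all probes lay at -0.21 in lean rats, against -0.02 with loess, and 312 probes were called higher and 6272 lower. Relative to that median, Ambp stood at 0.55, Rbp4 at 0.45 and Afp at -0.83 in lean rats. Their changes as such were 0.35 (adjusted p = 0.170), 0.24 (adjusted p = 0.447) and -1.04 (adjusted p = 0.0202), so that only Afp of the carriers was called. From the scanner's own processed signals Ambp was called in obese rats (0.53, adjusted p = 0.0498) and in lean rats (0.52, adjusted p = 0.0469), while Rbp4 lost its lean call (0.43, adjusted p = 0.112). The difference between genotypes for Afp stood at 0.80 from processed signals (adjusted p = 0.209) and 1.63 with median centring (adjusted p = 0.103), which is 1.42 above the median of all probes, itself moved to 0.21. In lean rats the signs of all 3 Alb probes turned with median centring, as did those of Tf, Gc, Serpina1 and Ahsg probe 1, none of which had been called. Relative to the median of all probes in that setting, Alb probe 2 (0.020), Tf (0.12), Gc (0.15) and Serpina1 (0.080) lay above. Alb probe 1 (-0.14), Alb probe 3 (-0.10) and Ahsg probe 1 (-0.12) lay below it.

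**Figure D2:**
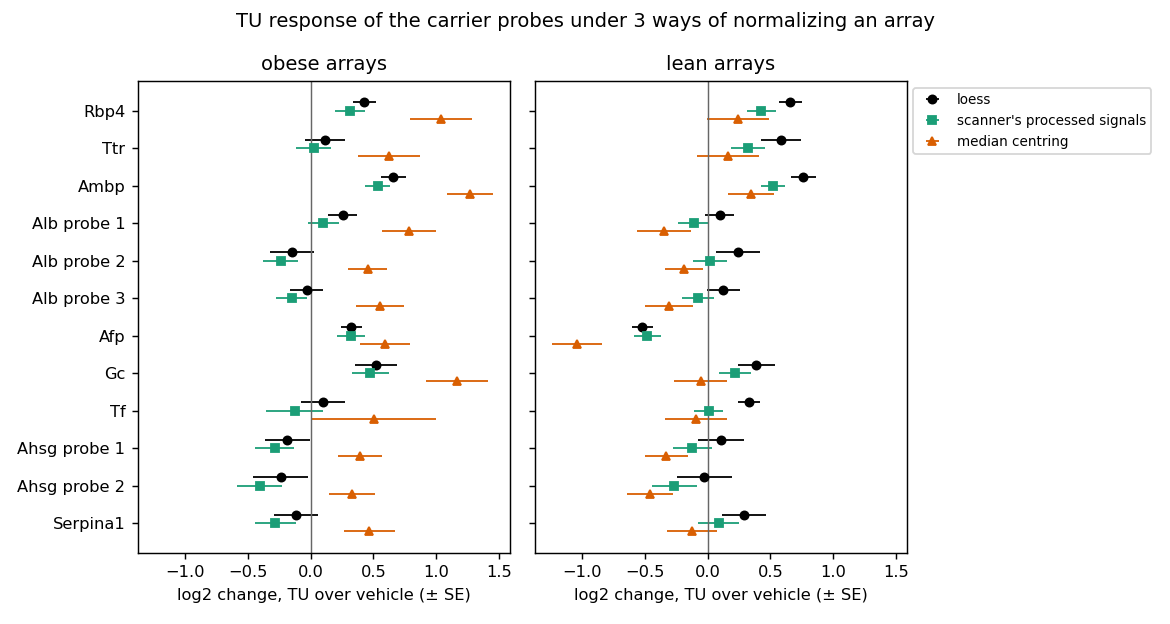
Log2 change with TU (x axis, ± SE of the limma fit) of the 12 carrier probes in obese (left) and lean (right) arrays with loess (black circles), from the scanner's processed signals (green squares) and with median centring (orange triangles). Ambp and Rbp4 lie above 0 in all 3 settings in both genotypes, and Afp keeps its opposite signs. Median centring moves all 12 probes, these included, up in obese and down in lean arrays.

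The named genes outside the 9 whose log2 ratios were most like each carrier's were found by the root mean square difference over the arrays, using the brightest probe of a gene. For Afp they were Slc16a6 (0.16 over 8 arrays) and Kcnh1 (0.19). For Rbp4 they were Ndrg2 (0.13) and the transcription factor Klf9 (0.20), and for Ambp the apolipoprotein Apoa2 (0.23) and the adhesion protein vitronectin, Vtn (0.25). The pairs were haptoglobin, Hp (0.20), and kininogen, Kng1 (0.22), for Ttr, Aldh1l1 (0.19) and Cox4i1 (0.22) for Alb, Crp (0.12) and Cox4i1 (0.15) for Serpina1, and Tmem120a (0.17) and Eml2 (0.18) for Ahsg. For Gc, over 7 arrays, they were Fbp1 (0.15) and Atp5f1e (0.16), and for Tf, over 5, Ufl1 and Fabp12 (0.10 each). These values describe the arrays, which share probes' brightness and normalization.

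The other proteins that hepatocytes secrete were next set beside the carriers, 1 brightest probe per gene. Of 32 genes 30 were measured. In obese rats 0 passed and 17 of 30 lay above 0 (median 0.047). In lean rats 1 rose, 0 fell and 23 of 30 lay above 0 (median 0.27). The 9 carriers had medians of 0.11 in obese and 0.33 in lean rats, against -0.0095 and -0.019 over all probes. With median centring the order of the genotypes turned: the carriers' medians were 0.59 in obese and -0.091 in lean rats, and those of the other secreted proteins 0.56 and -0.15. The gene that rose was Serpina3n, an inhibitor of serine proteases (0.53 ± 0.075, adjusted p = 0.0433). Orosomucoid Orm1, an acute phase carrier, stood at 0.73 ± 0.16, vitronectin Vtn at 0.64 ± 0.10 and prothrombin F2 at 0.60 ± 0.14 in lean rats, none of them called. In obese rats the corticosteroid carrier Serpina6 stood at -0.90 ± 0.13, Igfals, which holds insulin-like growth factors in plasma, at -0.80 ± 0.18 and plasminogen, Plg, at -0.72 ± 0.27, again without a call. These genes lay below 0 in lean rats too, at -0.49 ± 0.13, -0.47 ± 0.18 and -0.31 ± 0.27, also not called. Hepatocyte markers outside the carriers gave 0 calls of 12 in each genotype, with medians of -0.10 in obese and 0.33 in lean rats, which became 0.27 and -0.14 with median centring. Among them Tat, a tyrosine-degrading enzyme, stood at -0.69 ± 0.25 in obese rats and Pck1, an enzyme of glucose production, at 0.92 ± 0.26 in lean rats.

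Regulators of plasma protein genes gave 0 calls with TU in either genotype among 20 measured of 22 (medians -0.11 in obese and -0.070 in lean rats). Zbtb20, which in mice represses Afp after birth, stood at -0.35 ± 0.19 in obese and -0.25 ± 0.19 in lean rats. The furthest from 0 were Dbp, a clock output factor first found at the albumin promoter, at -0.53 ± 0.26 in obese rats, and Onecut1 and Foxa2, both liver-enriched factors, at 1.00 ± 0.33 and 0.87 ± 0.26 in lean rats. Receptors and partners of the carriers gave 0 calls among 21 measured of 25 (medians -0.069 and 0.013). They included Stra6l, in mice a receptor for Rbp4, at -0.68 ± 0.20 in obese and -0.30 ± 0.20 in lean rats, and the transferrin receptor Tfrc at 0.084 ± 0.11 and -0.43 ± 0.11. Genes of fetal liver and progenitor cells other than Afp gave 0 calls among 12 measured of 20 (medians 0.046 and -0.018). Of the 12, 7 lay above 0 in obese and 5 in lean rats. Values included those of Gpc3 (0.32 ± 0.10), Cdkn1c (0.32 ± 0.12) and Cd24 (0.28 ± 0.088) in obese rats, and Cdkn1c (0.38 ± 0.12) and Cd24 (0.37 ± 0.088) in lean rats. The imprinted fetal transcript H19 stood at 0.091 ± 0.067 in obese and -0.059 ± 0.067 in lean rats. Zbtb20 and H19 were singled out after their values were seen. Median centring called 6272 of 26896 probes lower in lean rats and 0 of 26962 probes in obese rats. With it 9 of 20 regulators (median -0.45), 7 of 21 receptors and partners (median -0.46) and 4 of 12 fetal and progenitor genes (median -0.23) were called lower in lean rats. In obese rats these lists gave 0, 0 and 0 calls with it. For the obese minus lean difference each of these lists gave 0 calls. The gene furthest from 0 was Onecut1 among regulators (-1.28 ± 0.47), Orm1 among secreted proteins (-0.67 ± 0.23), Pck1 among hepatocyte markers (-0.98 ± 0.37) and Asgr1 among receptors (-0.52 ± 0.17).

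Markers of other liver cells are given for the same contrast, and their part in the carriers' changes was not tested. In bulk liver, fewer cells of a type and less RNA per cell cannot be told apart. Kupffer cell and macrophage markers lay above 0 in 0 of 9 genes in obese rats and 0 of 9 in lean rats (medians -0.19 and -0.15), none called, with Cd68, a lysosomal protein of these cells, at -0.45 ± 0.081 and -0.42 ± 0.081. The log2 of their summed level was 15.09 to 15.25 under TU and 15.02 to 15.70 under vehicle in obese rats, and 15.31 to 15.49 under TU and 15.40 to 15.84 under vehicle in lean rats. Erythroid markers lay above 0 in 1 of 5 genes in obese and 5 of 5 in lean rats, none called, with the globin Hbb at -0.71 ± 0.40 and 0.79 ± 0.40. On the same scale their sum was 12.61 to 13.15 under TU and 12.59 to 14.82 under vehicle in obese rats, and 12.56 to 13.67 under TU and 11.57 to 12.87 under vehicle in lean rats. Stellate cell markers had medians of 0.050 in obese and -0.27 in lean rats (7 genes), and sinusoidal endothelium of -0.067 and -0.083 (5 genes). Cholangiocyte markers had medians of 0.014 and -0.024 (5 genes), and lymphocytes and neutrophils of 0.020 and -0.055 (6 genes). With median centring 4 of 9 Kupffer cell markers (median -0.65), 4 of 7 stellate cell markers (median -0.79), 3 of 5 cholangiocyte, 1 of 5 endothelial, 1 of 6 lymphocyte and neutrophil and 0 of 5 erythroid markers were called lower in lean rats, and 0 of any of these lists in obese rats. Over all probes that setting called 6272 of 26896 lower in lean rats and 0 of 26962 in obese rats. Krt7, Sox9, Cftr, Cd5l, Acta2, Stab2, Clec4g, Vwf, Cd3e, Mpo, Elane, Hba-a1 and Hba-a2 had no tested probe.

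**Figure D3:**
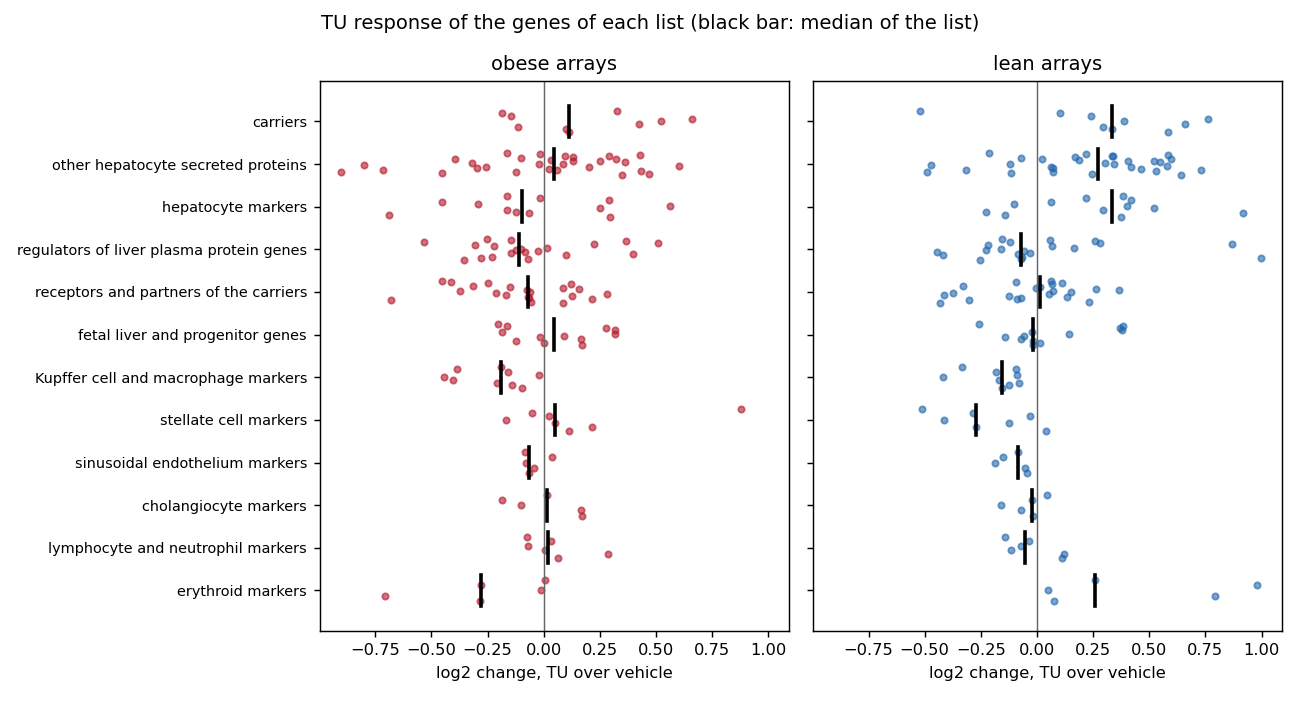
Log2 change with TU (x axis) of each measured gene (points, brightest probe) of the carriers and 11 other lists (rows), in obese (left, red) and lean (right, blue) arrays, with the median of each list as a black bar. The carriers' median is 0.11 in obese and 0.33 in lean arrays, beside 0.047 and 0.27 for other secreted proteins and -0.10 and 0.33 for hepatocyte markers.

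Obese and lean livers were then compared within 1 channel at a time, so that dye and treatment were the same on each side. Under vehicle, an albumin probe and Rbp4 were higher in obese rats, and the other carriers were not called. Of 12 carrier probes 2 were called, both higher, against 15.0% of 26894 probes called and 7.98% called higher, and 0 were lower, against 7.05%, so the carriers' share lay near that of all probes. An unadjusted p under 0.05 was held by 4 of 12, against 31.5%. Alb probe 2 had levels of 17.14, 17.74, 17.14 and 17.19 in vehicle-treated obese rats, against 16.69, 16.64, 16.34 and 16.66 in vehicle-treated lean rats. Every obese array lay above every lean one, and the level was 1.64-fold higher (0.72 ± 0.15, adjusted p = 0.0224). Probe 3 had 16.93, 17.54, 16.58 and 16.97 in obese rats, against 16.51, 16.52, 16.35 and 16.53 in lean rats, again without overlap, and missed the threshold (0.53 ± 0.18, adjusted p = 0.0932). Probe 1 stood at 0.038 ± 0.13 (adjusted p = 0.876, 95% interval -0.27 to 0.34), so the 3 albumin probes did not show the same difference. Rbp4 had 17.37, 17.21, 17.17 and 17.37 in obese rats, against 17.11, 17.07, 16.92 and 16.91 in lean rats, also without overlap (0.28 ± 0.076, adjusted p = 0.0467). Of all probes 14.4% had every obese array above every lean one under vehicle.

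The vehicle calls changed with the scaling and with single arrays. From processed signals scaled to the 75th percentile, Alb probe 2 stood at 0.16 (adjusted p = 0.503) and Rbp4 turned to -0.29 (adjusted p = 0.574). With quantile normalization of all channels in place of loess, Alb probe 2 kept its call (0.74, adjusted p = 0.00511) and Rbp4 stood at -0.031 (adjusted p = 0.898), while Tf, on 1 obese array, was called lower (-0.51, adjusted p = 0.0346). Without lean replicates 1 to 4 the adjusted p of Alb probe 2 was 0.0561, 0.0619, 0.0641 and 0.0605, and that of Rbp4 0.0682, 0.0911, 0.133 and 0.124. Rbp4 also lost its call without obese replicates 1 (0.0698) and 4 (0.0992), and Alb probe 3 gained one without obese replicate 3 (0.68, 0.0318). Ttr had 11.71, 17.64, 17.31 and 17.18 in vehicle-treated obese rats, against 16.49, 17.05, 16.72 and 16.91 in lean rats, with the dim spot of obese replicate 1 far below the rest. With that array Ttr stood at -0.83 ± 1.26 (adjusted p = 0.701), and without it at 0.59 (adjusted p = 0.0462). Without that array 5616 of 26891 probes were called in all under vehicle, against 4041 of 26894 with all arrays.

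Under TU, Tf was called lower in obese rats and no carrier higher, and both statements changed with the settings. Of 12 probes 1 was called, against 20.2% of 26894 probes called and 8.50% called lower, and 4 of 12 had an unadjusted p under 0.05, against 34.1%. None was called higher, against 11.7%. Tf had a level of 16.51 on the 1 obese array in its fit, against 17.09, 16.94, 17.13 and 17.19 in TU-treated lean rats (-0.58 ± 0.13, adjusted p = 0.0351). The call thus sets 1 obese array against 4 lean ones, whose spread it was assumed to share. With the non-uniform spots kept, the 4 obese levels were 16.52, 16.02, 12.48 and 15.88, all below the lean levels, and Tf stood at -1.86 without a call (adjusted p = 0.145). With those spots dropped, 11.2% of probes measured on all arrays had every obese level below every lean one under TU. Tf also lost its call without lean replicates 1, 3 and 4 (adjusted p = 0.0891, 0.0872 and 0.0789) and could not be fitted without obese replicate 1. Afp stood at 0.56 ± 0.17 (adjusted p = 0.0562), 1 of the 15.8% of probes with every obese array above every lean one, and was called without obese replicate 1 (0.61, 0.0409) or 2 (0.67, 0.0420). It was also called higher with non-uniform spots kept (0.58, 0.0432), with the filter requiring both channels on all 8 arrays (0.56, 0.0443) and with quantile normalization in place of loess (0.57, 0.0400). Quantile normalization called Alb probe 3 (0.38, 0.0403) and Rbp4 (0.31, 0.0373) higher too, and kept Tf lower (-0.43, 0.0471). Without obese replicate 1, Alb probes 2 and 3 (0.47 and 0.46), Gc (0.49) and Serpina1 (-0.46) were called as well, with adjusted p from 0.0254 to 0.0414. In that fit 8437 of 26891 probes were called in all, against 5445 of 26894 with all arrays.

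Ambp, Ahsg, Gc and Serpina1 were not called in either channel. Ambp had 17.29, 17.87, 18.04 and 17.77 in TU-treated obese rats, against 17.63, 17.75, 17.99 and 17.82 in TU-treated lean rats (-0.055 ± 0.16, 95% interval -0.42 to 0.31). Under vehicle it had 16.58, 17.42, 17.34 and 17.00 in obese rats, against 17.17, 17.02, 16.86 and 17.09 in lean rats (0.048 ± 0.18, 95% interval -0.38 to 0.48). The obese values bracketed the lean ones in each channel. Rbp4 under TU stood at 0.048 ± 0.10, with 17.53, 17.70, 17.68 and 17.92 in obese rats, against 17.45, 17.79, 17.76 and 17.65 in lean rats. By mean level Rbp4 ran from TU-treated obese (17.71 ± 0.16) and TU-treated lean (17.66 ± 0.16) to vehicle-treated obese (17.28 ± 0.11) and vehicle-treated lean rats (17.00 ± 0.10, SD, n = 4 each), the TU-treated genotypes overlapping. Ahsg, Gc and Serpina1 had adjusted p of 0.111 to 0.927 over the 2 channels, the lowest of them for Serpina1 under TU (-0.35 ± 0.14, 95% interval -0.67 to -0.037). Tf under vehicle had 16.41 on its 1 obese array, below all lean levels of 16.77, 16.88, 16.64 and 16.73, without a call (-0.35 ± 0.12). Of probes measured on all arrays, 12.0% had every obese level below every lean one under vehicle.

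**Figure D4:**
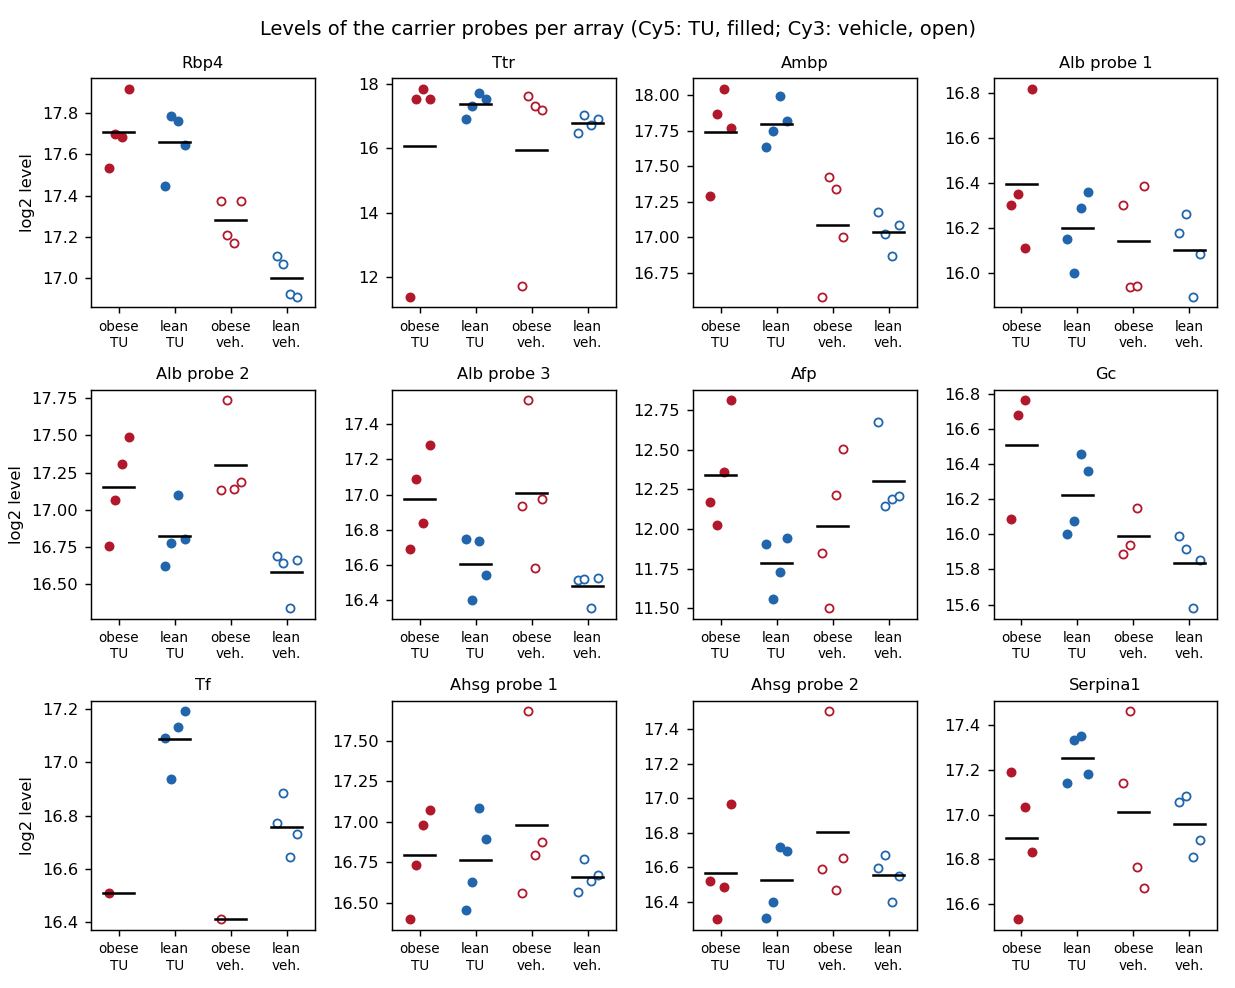
Normalized log2 level (y axis, own scale per probe) of the 12 carrier probes on each array, for TU-treated obese and lean rats (filled, Cy5) and vehicle-treated obese and lean rats (open, Cy3), with the mean of each group as a bar. Afp under TU, and Alb probes 2 and 3 and Rbp4 under vehicle, show every obese array above every lean one, and 1 obese array holds the dim Ttr spot.

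The 30 other secreted proteins gave 5 higher and 1 lower in obese rats under vehicle and 4 higher and 2 lower under TU. That is 20.0% of the list in each channel, against 15.0% of all probes under vehicle and 20.2% under TU. Those higher under vehicle were Orm1 (0.97 ± 0.11), Serpinf1 (0.94 ± 0.26), antithrombin Serpinc1 (0.66 ± 0.11), the copper carrier Cp (0.60 ± 0.13) and Apoa1 (0.57 ± 0.15), and Igfbp1, which binds insulin-like growth factors, was lower (-1.18 ± 0.22). Under TU the higher ones were Serpinf1 (0.61 ± 0.11), Igf1 (0.50 ± 0.11), Hp (0.38 ± 0.087) and Apoa1 (0.33 ± 0.10), and Igfbp1 (-1.16 ± 0.23) and F2 (-0.61 ± 0.11) were lower. Regulators gave 5 higher and 1 lower of 20 under vehicle and 7 higher and 0 lower under TU, against 7.98% higher and 7.05% lower of all probes under vehicle and 11.7% and 8.50% under TU. The counts of the lists that follow stand against the same shares. Dbp differed most, at 4.12 ± 0.27 under vehicle and 3.71 ± 0.38 under TU. Zbtb20 was higher in obese rats in each channel (0.69 ± 0.17 and 0.59 ± 0.14), as were Foxa1 (0.72 ± 0.15 and 0.95 ± 0.16) and Nfia (0.53 ± 0.11 and 0.57 ± 0.11). Prox1 was higher under vehicle (0.33 ± 0.083), where Nr2f2 was lower (-0.83 ± 0.18), and Cebpa (0.59 ± 0.093) and Nfib (0.46 ± 0.12) were higher under TU.

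Receptors and partners gave 3 higher and 2 lower of 21 under vehicle and 5 higher and 3 lower under TU. Lrat, which esterifies retinol for storage in stellate cells, was lower in obese rats under vehicle (-0.94 ± 0.17) and under TU (-0.70 ± 0.15). Of the iron store, ferritin heavy chain Fth1 was higher (0.85 ± 0.23 and 0.94 ± 0.11) and light chain Ftl1 lower (-0.83 ± 0.076 and -0.94 ± 0.081). The albumin-recycling receptor Fcgrt was higher under vehicle (0.61 ± 0.16). Under TU, Stra6l (0.49 ± 0.11), the insulin receptor Insr (0.57 ± 0.070) and Lrp2 (0.48 ± 0.070) were higher and Hao1 was lower (-0.72 ± 0.18). Hao1 was counted in this list, but no tie of it to a carrier is given here. Fetal and progenitor genes gave 0 higher and 1 lower of 12 under vehicle, Cd24 (-1.41 ± 0.38), and 0 higher and 2 lower under TU, Cd24 (-1.51 ± 0.31) and Cdkn1c (-0.66 ± 0.17). Hepatocyte markers gave 3 higher and 0 lower of 12 under vehicle (Cps1, Tdo2 and Apoa1) and 2 higher and 0 lower under TU (Cps1 and Apoa1).

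Cell type markers also differed between the genotypes, and their part in the carriers' values was not tested. Stellate cell markers gave 2 higher and 1 lower of 7 under vehicle and 4 higher and 1 lower under TU, with the collagen gene Col3a1 at 0.56 ± 0.14 and 0.80 ± 0.17. The marker called lower in each channel was Lrat, whose values stand above with the receptors and partners. The log2 of their summed level was 13.04 to 14.01 in obese, against 12.65 to 12.77 in lean rats under TU, and 13.01 to 13.55 in obese, against 12.92 to 13.17 in lean rats under vehicle. Of Kupffer cell markers, C1qa was lower under vehicle (-0.91 ± 0.24), and C1qa (-1.20 ± 0.22) and Clec4f (-0.95 ± 0.10) under TU, of 9. In each channel 5 of the 9 lay above 0, with medians of 0.00064 under vehicle and 0.070 under TU. Of 5 endothelial markers 0 passed under vehicle and Lyve1 (-0.46 ± 0.10) and Pecam1 (-0.18 ± 0.052) were lower under TU. Cholangiocyte genes gave 0 higher and 1 lower of 5 under vehicle and 1 higher and 1 lower under TU, with Cldn4 lower in each channel. Erythroid genes gave 1 higher and 0 lower of 5 under vehicle (Slc4a1, 0.63 ± 0.17) and 0 higher and 0 lower under TU, and lymphocyte and neutrophil genes 0 of 6 in each channel.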

How the data were processed

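Liver RNA of TU-treated rats (Cy5) and vehicle-treated rats (Cy3) was measured on 8 arrays, 4 obese and 4 lean. Per the file headers, the authors extracted spots with Agilent Feature Extraction 10.7.3.1 from scans at a high and a low sensitivity, and the deposited files hold median spot and background intensity values, processed intensity values (background-subtracted and dye-normalized), a log10 ratio of Cy5 over Cy3, and spot flags. The deposited value table holds log2 ratios, which correlated with the log2 ratios of the processed signals at 0.9997 or above on every array and so run in their direction. Their scale was alike too. The median change over all probes was -0.00757 from each source in obese rats. In lean rats it was -0.0352 from the deposited ratios and -0.0359 from the processed signals. The centring of the deposited table is not stated, and its medians per array run from 0.046 to 0.14.

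From the median signals, background was corrected with limma 3.58.1 in R 4.3.3 (normexp, offset 50). Ratios were normalized by loess within arrays (span 0.3), and channels for the genotype comparisons by Aquantile between arrays. Control and non-uniform spots were dropped, and spots of a probe were averaged. Of 41012 probes, the fit took 26964, each well above background in Cy3 or Cy5 on 4 or more of the 8 arrays. Each was fitted on its own with lmFit and eBayes over all arrays, and called at a Benjamini-Hochberg adjusted p under 0.05. A fold change is 2 to the power of the log2 change. Array number limits the precision. The scripts were tested on simulated data with known changes.

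Accessions were named through RefSeq tables on GRCr8, and the array was designed on rn4, for which no coordinates are printed. Lean and obese arrays carry different annotation versions, and the newer one, of the lean arrays, was used first. It alone named 1 of 12 carrier probes, that of Rbp4. For lists, the brightest tested probe of a gene was taken. Genes named were all carriers, the called genes of each list or else up to 3 with the largest change, and the 2 most alike to each carrier. The carriers and lists were chosen with earlier results of these data known. A few genes of these lists are counted but not reported here by name. Alternatives covered background correction, filter, probes of a gene, normalization, eBayes settings, replicate block and single arrays. Keeping non-uniform spots and a loess span of 0.7 were chosen after seeing the data.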

Additional observations from a re-analysis of the deposited data

Results flagged for a closer look

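Among 66 groups of 4 arrays, 7 held an array whose gap to the nearest other array, as a share of the group's range, exceeded Dixon's 95% critical value, and chance marks about 1 in 20 groups. For Ttr this was obese replicate 1 in both channels: its level was 11.37 under TU, against 17.53 to 17.86 on the other arrays (share 0.9497), and 11.71 under vehicle, against 17.18 to 17.64 (share 0.9228). The same array gave the low Rbp4 ratio of 0.16, against 0.49 to 0.54 (share 0.8571). Alb probe 2 under vehicle stood at 17.74 on obese replicate 2, against 17.14 to 17.19 (share 0.9117), and at 16.34 on lean replicate 3, against 16.64 to 16.69 (share 0.8515). Alb probe 3 stood at 16.35 on that same lean array, against 16.51 to 16.53 (share 0.923). Afp under vehicle stood at 12.67 on lean replicate 1, against 12.14 to 12.21 (share 0.8773).

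The response of Afp to TU was 0.8434 higher on the log2 scale in obese than in lean rats, with ratios above 0 on 4 of 4 obese arrays and below 0 on 4 of 4 lean arrays, an unadjusted p of 7.84e-05 and an adjusted p of 0.301 in limma's test of the difference, which ranged from 0.103 to 0.888 over the alternatives.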

How the results depend on the processing

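Most alternatives changed 1 choice, while trend and robust changed both eBayes settings, processed signals and the deposited log2 ratios replaced background correction and loess together, and scaling to the 75th percentile replaced the scaling between arrays as well. With TU in obese rats, 0 carrier probes were called, 1 without background correction and 1 from processed signals (Ambp in each), and 0 whichever array was left out. In lean rats 2 were called, against 0 with trend and robust eBayes settings and with ratios scaled between arrays, 1 with the replicate block, with no filter, with median centring, from processed signals and from the deposited log2 ratios, 3 without background correction and with lean arrays alone (Afp lower in each), and 0 to 3 without single arrays. The 1 call with median centring was Afp, lower. For obese over lean under vehicle 2 were called. The count was 1 without background correction, with trend and robust settings, with the replicate block and with non-uniform spots kept. It was also 1 with the filter requiring both channels on all 8 arrays, 0 from processed signals scaled to the 75th percentile, and 0 to 3 without single arrays. Quantile normalization in place of loess also called 2, but Alb probe 2 higher and Tf lower. With the mean of a gene's probes, Alb and Ahsg were not counted in any comparison. Of the 7 carriers left, 1 was called higher under vehicle. Under TU 1 was called, against 0 without background correction, with trend and robust settings and from processed signals scaled to the 75th percentile, 2 with the strict filter, 4 with quantile normalization in place of loess, and 0 to 5 without single arrays. The replicate block and non-uniform spots kept also gave 1, but it was Afp, higher, not Tf. With the block Afp stood at 0.56 (adjusted p = 0.0276) and Tf at -0.59 (adjusted p = 0.151). For the difference in response 0 were called in every setting run.

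Replicate numbers are shared by the genotypes, and the correlation of same-numbered arrays' deviations was 0.059, -0.10, 0.16 and -0.012 for replicates 1 to 4. Of 4 lean arrays 2 correlated best with the obese array of their own number. With so few arrays these values cannot tell whether same-numbered samples were paired. The replicate block gave 23 called probes in lean rats against 53, 0 in obese rats against 3, 1641 under vehicle against 4041 and 5163 under TU against 5445. Over all probes, the lean calls numbered 318 without background correction, 0 with trend and robust settings and with scaled ratios, 276 from processed signals, 278 from the deposited log2 ratios, 314 with lean arrays alone, 6584 with median centring and 1 to 1199 without single arrays. Obese calls numbered 209 from processed signals, 203 from the deposited log2 ratios, 6 without background correction and with non-uniform spots kept, 0 with trend and robust settings, with the mean of a gene's probes, with median centring, with scaled ratios and with obese arrays alone, and 0 to 2 without single arrays. The 1 call for the difference became 0 without background correction, with trend and robust settings, with the replicate block, with the mean of a gene's probes, with median centring and with scaled ratios, 2 from processed signals and from the deposited log2 ratios, and 0 to 3 without single arrays. Genotype calls ranged from 1691 to 5616 under vehicle and 3392 to 8437 under TU without single arrays. Of 26894 probes, 4677 were called under vehicle and 6160 under TU without background correction, and 4449 and 5680 with trend and robust settings. Quantile normalization in place of loess gave 4809 and 5814, and processed signals scaled to the 75th percentile 6017 and 8077. Non-uniform spots kept gave 4176 and 5608 of 26964 probes. The filter requiring both channels on all 8 arrays gave 3208 and 4724 of 17721.

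With median centring the sign turned with TU in obese rats for Alb probe 2 (0.45), Alb probe 3 (0.55), Ahsg probe 1 (0.39), Ahsg probe 2 (0.33) and Serpina1 (0.47), with TU in lean rats for Alb probe 1 (-0.34), Alb probe 2 (-0.19), Alb probe 3 (-0.31), Tf (-0.091), Ahsg probe 1 (-0.33), Gc (-0.056) and Serpina1 (-0.13), and in the obese minus lean difference for Alb probe 2 (0.64), Alb probe 3 (0.86), Ambp (0.92), Ttr (0.46), Rbp4 (0.80), Tf (0.60), Ahsg probe 1 (0.72), Ahsg probe 2 (0.79) and Serpina1 (0.59). With ratios scaled between arrays the sign turned with TU in obese rats for Alb probe 2 (0.31), Alb probe 3 (0.56), Ahsg probe 1 (0.32) and Serpina1 (0.54), with TU in lean rats for Ahsg probe 2 (0.10), and in the obese minus lean difference for Alb probe 3 (0.35), Ambp (1.07), Ttr (0.54), Rbp4 (0.67), Ahsg probe 1 (0.10) and Serpina1 (0.18). From the scanner's processed signals the sign turned with TU in obese rats for Tf (-0.13), with TU in lean rats for Alb probe 1 (-0.11), Alb probe 3 (-0.076) and Ahsg probe 1 (-0.12), and in the obese minus lean difference for Ambp (0.013). From the deposited table of log2 ratios the sign turned with TU in obese rats for Tf (-0.22), with TU in lean rats for Alb probe 1 (-0.11), Alb probe 3 (-0.076) and Ahsg probe 1 (-0.12), and in the obese minus lean difference for Ambp (0.013). From processed signals scaled to the 75th percentile the sign turned in obese over lean under vehicle for Alb probe 1 (-0.36), Ambp (-0.41), Rbp4 (-0.29), Ahsg probe 1 (-0.21), Ahsg probe 2 (-0.023) and Gc (-0.20), and in obese over lean under TU for Alb probe 1 (-0.16), Alb probe 2 (-0.10), Alb probe 3 (-0.0040), Rbp4 (-0.41), Ahsg probe 1 (-0.38) and Ahsg probe 2 (-0.16). With quantile normalization in place of loess the sign turned in obese over lean under vehicle for Alb probe 1 (-0.051), Ambp (-0.30), Rbp4 (-0.031) and Serpina1 (-0.20), and in obese over lean under TU for Ambp (0.26). Without background correction the sign turned with TU in obese rats for Alb probe 3 (0.047), in the obese minus lean difference for Ambp (0.011), in obese over lean under vehicle for Alb probe 1 (-0.0083), Ambp (-0.0087) and Serpina1 (-0.0014), and in obese over lean under TU for Ambp (0.0020). With non-uniform spots kept the sign turned with TU in obese rats for Tf (-0.034), and in obese over lean under vehicle for Gc (-0.0059). With a loess span of 0.7 the sign turned with TU in lean rats for Ahsg probe 2 (0.14), in the obese minus lean difference for Gc (-0.013), and in obese over lean under TU for Rbp4 (-0.032), Ahsg probe 1 (-0.044) and Ahsg probe 2 (-0.031). Without single arrays the sign turned, over the range given, with TU in obese rats for Alb probe 2 (-0.29 to 0.030), Alb probe 3 (-0.14 to 0.11), Ttr (-0.031 to 0.26), Ahsg probe 1 (-0.31 to 0.070), Ahsg probe 2 (-0.42 to 0.088) and Serpina1 (-0.24 to 0.16), with TU in lean rats for Alb probe 1 (-0.0036 to 0.21), Ahsg probe 1 (-0.011 to 0.19) and Ahsg probe 2 (-0.14 to 0.064), in the obese minus lean difference for Ambp (-0.20 to 0.019) and Ahsg probe 2 (-0.39 to 0.11), in obese over lean under vehicle for Alb probe 1 (-0.046 to 0.11), Ambp (-0.066 to 0.23), Ttr (-1.40 to 0.59) and Serpina1 (-0.10 to 0.17), and in obese over lean under TU for Ambp (-0.15 to 0.10), Ttr (-1.90 to 0.27), Rbp4 (-0.028 to 0.10), Ahsg probe 1 (-0.077 to 0.16) and Ahsg probe 2 (-0.095 to 0.13). None of these carrier values had been called except Rbp4 under vehicle, and the cause was not tested. The slide could not be taken as a block, since each holds 1 genotype. Precision is limited by 4 arrays a group, 1 obese array for Tf, and by the scaled-up low-sensitivity scan behind nearly all readings outside Afp.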
